A study of Mus musculus with 8 samples.

Results

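The genes that copy, write and erase DNA methylation were followed in regenerating mouse liver. They comprised 8 of the 34465 genes in the deposited table, chosen by name for their function: Dnmt1, Uhrf1, Hells, Dnmt3a, Dnmt3b, Tet1, Tet2 and Tet3. Their transcripts made up 56 of the 96792 deposited isoforms. When DNA is replicated, the new strand carries no methyl groups; UHRF1 binds the hemimethylated sites and brings in DNMT1, which copies the pattern, while the chromatin remodeller HELLS opens packed chromatin to the methylation machinery. DNMT3A and DNMT3B place methyl groups at sites that had none, and the TET enzymes oxidise methylcytosine as a step towards its removal. In a regenerating liver hepatocytes leave quiescence and replicate their DNA, and UHRF1 is known as a gene of cycling cells.

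RNA of whole livers was sequenced in 8 libraries, 2 for each of 4 groups, from 129S4/SvJae/FVB mice aged 3 months. Cre-positive hepatectomy livers (b-PDGFR fl/fl with GFAP Cre +/-) and Cre-negative hepatectomy livers (b-PDGFR fl/fl, GFAP Cre -/-) were taken 72 h after partial hepatectomy. Cre-positive and Cre-negative sham livers had the same genotypes and a sham operation. All 8 libraries therefore came from animals with floxed alleles of Pdgfrb, a receptor of platelet-derived growth factor, and the Cre that acts on them is driven by the GFAP promoter, used here to reach hepatic stellate cells. The labels do not say that duplicates were separate animals, so p-values measure only the spread between these samples. In whole liver, fewer cells of a type and less RNA per cell cannot be told apart.

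Values are the authors' normalized signal, whose depth is unknown, so no counting interval is given. The summed signal of a library lay between 8617660 and 11583800. Pdgfrb signal, in whole liver a mixture of targeted and other cells, was 63.1 and 99.9 in Cre-positive hepatectomy livers and 123 and 70.5 in Cre-negative hepatectomy livers. In sham livers it was 59.4 and 46.0 in Cre-positive and 49.8 and 63.3 in Cre-negative animals. The liver markers were present apart from Alb, the albumin gene, which was listed at 0 in 7 of 8 libraries; an exact 0 may therefore be an estimate that failed. Cre-positive hepatectomy library 2 stood apart: its 10 highest genes took 30.0% of its signal, against 14.3% to 18.4% in the other 7 libraries. Its signal also ran with base composition. Its 928 genes under 40% GC had a median log2 difference from the sham mean of -1.49, and its 3496 genes of 55% GC or more had one of 0.66.

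The promoters of the 8 genes were read from RefSeq (GRCm38.p6), in windows of 250 bases before to 50 bases after each annotated start, and all 8 genes were matched, with 13 windows. They are shown because the 3 genes of the maintenance machinery were the ones that held the word bound by E2F, a factor family that governs genes of DNA replication. The words searched on both strands were TTTCCCGC, TTTCGCGC, TTTGCCGC and TTTGGCGC, and at least 1 of them was in 744 of 32851 windows (2.27%) and in 704 of 27025 genes (2.61%). Among the 8 genes it was in Dnmt1, Uhrf1 and Hells. Capitals mark the words in the windows below, 5′ to 3′ on the gene's strand. Position 1 is the annotated start. The Dnmt1 window (chr9:20952574-20952873, minus strand) held TTTCGCGC on the opposite strand at position -219 and TTTGGCGC at position 34, the Uhrf1 window (chr17:56304063-56304362, plus strand) held TTTCGCGC at position -185, and the Hells window (chr19:38930740-38931039, plus strand) held TTTCCCGC at position -62. The Tet3 window (chr6:83441629-83441928, minus strand) is given for contrast and held none of the words.
Dnmt1: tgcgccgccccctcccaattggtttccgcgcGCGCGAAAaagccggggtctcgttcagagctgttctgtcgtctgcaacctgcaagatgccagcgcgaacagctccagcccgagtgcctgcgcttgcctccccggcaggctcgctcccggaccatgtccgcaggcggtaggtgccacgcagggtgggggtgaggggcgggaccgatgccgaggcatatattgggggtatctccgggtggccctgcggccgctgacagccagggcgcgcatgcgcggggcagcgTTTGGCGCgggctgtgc
Uhrf1: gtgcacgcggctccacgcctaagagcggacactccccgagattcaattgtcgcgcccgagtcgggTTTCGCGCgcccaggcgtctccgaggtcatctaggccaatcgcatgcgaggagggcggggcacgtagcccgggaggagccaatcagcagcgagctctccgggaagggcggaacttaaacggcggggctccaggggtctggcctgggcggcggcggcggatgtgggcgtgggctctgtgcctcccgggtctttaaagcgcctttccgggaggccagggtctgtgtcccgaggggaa
Hells: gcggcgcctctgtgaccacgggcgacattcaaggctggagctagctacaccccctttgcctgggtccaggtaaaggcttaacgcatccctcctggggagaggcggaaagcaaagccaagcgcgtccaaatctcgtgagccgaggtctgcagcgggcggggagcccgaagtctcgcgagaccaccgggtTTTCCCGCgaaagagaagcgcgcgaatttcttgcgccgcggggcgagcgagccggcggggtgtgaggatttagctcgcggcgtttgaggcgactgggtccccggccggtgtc
Tet3: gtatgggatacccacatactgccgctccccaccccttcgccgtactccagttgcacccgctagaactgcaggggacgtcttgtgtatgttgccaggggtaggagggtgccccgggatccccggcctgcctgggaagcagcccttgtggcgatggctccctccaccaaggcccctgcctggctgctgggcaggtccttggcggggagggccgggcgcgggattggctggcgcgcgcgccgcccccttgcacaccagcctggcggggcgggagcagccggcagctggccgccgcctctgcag
A match describes letters only, and binding was not measured. The 5-letter word CCAAT, which was in 37.4% of all windows, was in windows of Dnmt1, Uhrf1 and Tet3. The words TTTGAA and TTCGAA, in 19.2% of all windows, were represented by TTTGAA in another Dnmt1 window and in that of Dnmt3b. The Dnmt1 and Uhrf1 genes had further annotated starts whose windows held no E2F word.

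Of the maintenance genes, Uhrf1 showed the widest separation. Its signal was 239 and 140 in Cre-positive and 119 and 97.7 in Cre-negative hepatectomy livers, against 6.36 and 7.86 in Cre-positive and 4.46 and 9.24 in Cre-negative sham livers. Every hepatectomy library was above every sham library; the lowest hepatectomy value was 97.7 and the highest sham value 9.24. Averaged over genotypes, Uhrf1 rose by a log2 fold change of 4.19 ± 0.30 (SE, n = 2 per group; adjusted p = 0.00288 with limma and Benjamini-Hochberg adjustment over the 16443 genes tested). This call held in all 16 alternative analyses, with adjusted p between 0.00167 and 0.0215.

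Dnmt1, the maintenance methyltransferase itself, changed less. Its signal was 383 and 401 in Cre-positive and 262 and 167 in Cre-negative hepatectomy livers, against 111 and 110 in Cre-positive and 111 and 109 in Cre-negative sham livers. The sham libraries lay almost on one value, and the hepatectomy libraries lay above them without overlap. Dnmt1 rose by 1.37 ± 0.19 (SE, log2; adjusted p = 0.0132, limma with Benjamini-Hochberg adjustment). Its spread among sham libraries was an SD of 0.0080 on the log2 scale, smaller than in all but 0.414% of tested genes, whose median was 0.194; among hepatectomy libraries it was 0.583, near the median of 0.557. Without any 1 of the 4 sham libraries the call was lost, at an adjusted p of 0.0767 to 0.0873, while the fold change stayed at 1.37.

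Hells varied most among the hepatectomy livers of the maintenance genes. Its signal was 134 and 13.8 in Cre-positive and 67.7 and 46.7 in Cre-negative hepatectomy livers, against 7.29 and 10.5 in Cre-positive and 10.4 and 6.75 in Cre-negative sham livers. All hepatectomy libraries were above all sham libraries, and the value of 13.8 in Cre-positive hepatectomy library 2 was the closest to them. The log2 fold change was 2.40 ± 0.65 (SE), which did not pass (adjusted p = 0.0908, limma with Benjamini-Hochberg adjustment). The longest Hells transcript is 37.7% GC, lower than in all but 1.91% of tested genes, and library 2 was low for such genes. The part of composition in the Hells value was not tested beyond the alternative that removes the trend with GC from each library, in which Hells had a log2 fold change of 2.80 and passed (adjusted p = 0.00826, limma), where 6.93% of all genes tested passed. It also passed without Cre-positive hepatectomy library 1 (1.61, adjusted p = 0.0108), where 32.7% of all tested genes passed, and without library 2 (3.20, adjusted p = 0.00729), where 6.18% did, so its fold change moved with which of these libraries was kept.

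**Figure D1:**
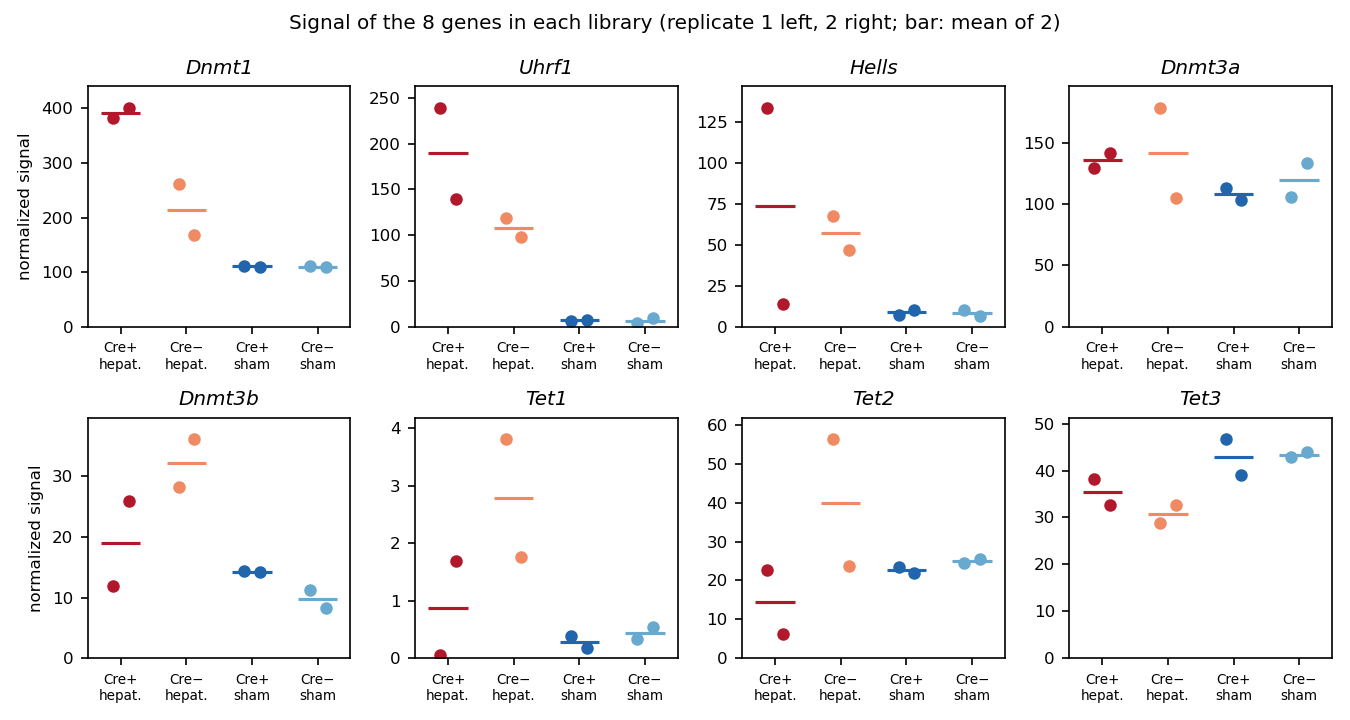
Normalized signal of the 8 genes in every library (vertical axis from 0, own scale per gene), with replicate 1 left and 2 right in each group and a bar at the mean of 2. Dnmt1, Uhrf1 and Hells lie higher in all 4 hepatectomy libraries than in all 4 sham libraries, with Hells at 13.8 in Cre-positive hepatectomy library 2, and Tet3 lies lower.

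The de novo enzymes did not pass the test in either direction. Dnmt3a, which places new methylation in somatic tissues, had signals of 129 and 142 in Cre-positive and 178 and 105 in Cre-negative hepatectomy livers, against 113 and 103 in Cre-positive and 106 and 133 in Cre-negative sham livers. The groups overlapped, with a log2 fold change of 0.26 ± 0.22 (SE; adjusted p = 0.48, limma). Dnmt3b, known for its part in early development, had 11.99 and 25.9 in Cre-positive and 28.2 and 36.1 in Cre-negative hepatectomy livers, against 14.4 and 14.2 in Cre-positive and 11.2 and 8.37 in Cre-negative sham livers. One Cre-positive hepatectomy library was within the sham range and the other 3 were above it, at a log2 fold change of 0.96 ± 0.31 (SE; adjusted p = 0.129, limma). Without Cre-positive hepatectomy library 1, Dnmt3b passed (1.22, adjusted p = 0.0116, limma), in a setting where 32.7% of all tested genes did.

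The TET genes, which encode the dioxygenases of methylcytosine, did not rise or fall by the test either. Tet3 had a signal of 38.3 and 32.7 in Cre-positive and 28.9 and 32.7 in Cre-negative hepatectomy livers, against 46.6 and 39.0 in Cre-positive and 42.8 and 44.0 in Cre-negative sham livers. Every hepatectomy library was below every sham library, yet the highest of them, at 38.3, was close to the lowest sham library, at 39.0. The log2 fold change was -0.37 ± 0.20 (SE; adjusted p = 0.297, limma). Tet2 had 22.7 and 6.13 in Cre-positive and 56.2 and 23.8 in Cre-negative hepatectomy livers, against 23.5 and 21.8 in Cre-positive and 24.5 and 25.4 in Cre-negative sham livers. Its 2 extremes were both hepatectomy libraries, and its longest transcript is 45.4% GC. The average was -0.16 ± 0.44 (SE; adjusted p = 0.836, limma). Tet1, best known from embryonic stem cells and germ cells, was near the floor of the table: 0.061 and 1.69 in Cre-positive and 3.81 and 1.76 in Cre-negative hepatectomy livers, against 0.384 and 0.175 in Cre-positive and 0.344 and 0.544 in Cre-negative sham livers. Its mean over the 8 libraries only just passed the filter of 1, through the hepatectomy libraries. Tet1 had a log2 fold change of 0.87 ± 0.40 (SE; adjusted p = 0.236, limma).

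Counted together, 2 of the 8 genes rose and none fell, where 3.64% of all tested genes rose and 0.845% fell. The median log2 fold change was 0.91 for the 8 genes and 0.12 for all tested genes. Without overlap between all hepatectomy and all sham libraries, 3 genes were higher and 1 was lower; across all tested genes 11.2% were higher and 6.2% lower in this sense. Within genotypes, in Cre-positive livers Uhrf1 (4.51, adjusted p = 0.0165) and Dnmt1 (1.82, adjusted p = 0.0398) rose, where 0.845% of all tested genes rose and 0.0973% fell (0.943% in either direction). Both of these calls were lost without either Cre-positive sham library, with no filter on low values and with only the 2 groups compared, where 0% of tested genes passed. The Dnmt1 call held in 8 of 17 alternatives and was also lost with quantile normalization, with no intensity trend, without Cre-positive hepatectomy library 2 and without either Cre-negative sham library. In Cre-negative livers Uhrf1 passed (3.86, adjusted p = 0.0208) and Dnmt1 did not (0.92, adjusted p = 0.14), where 1.01% of all tested genes rose and 0.103% fell (1.11% in either direction). The Uhrf1 call in Cre-negative livers was lost without any 1 of the Cre-negative hepatectomy, Cre-positive sham or Cre-negative sham libraries. All these adjusted p-values are from limma.

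**Figure D2:**
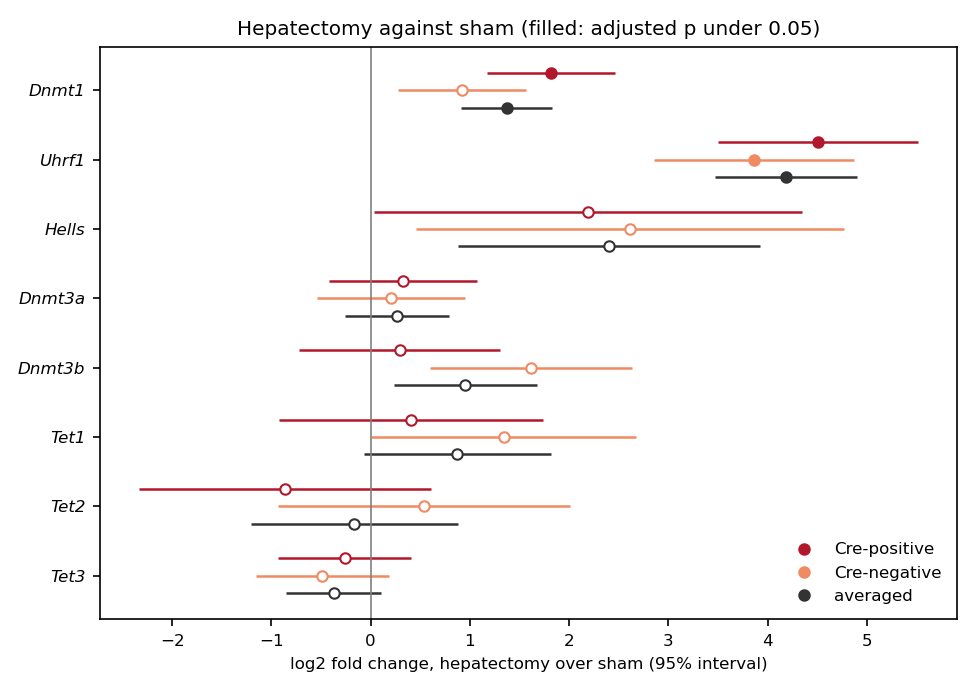
Log2 fold change of hepatectomy over sham for each gene with its 95% interval, in Cre-positive livers, in Cre-negative livers and averaged. Filled points passed an adjusted p of 0.05; only Uhrf1 is filled in all 3 rows, and Dnmt1 is filled in Cre-positive livers and in the average.

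Between genotypes no gene of the 8 passed in the main analysis. After hepatectomy, Dnmt1 was higher in Cre-positive than in Cre-negative livers by 0.90 on the log2 scale (95% interval 0.26 to 1.54; adjusted p = 0.185, limma), and the 2 Cre-positive values lay above the 2 Cre-negative ones. Tet2 was at -1.54 (95% interval -3.01 to -0.06; adjusted p = 0.261, limma). These were the 2 of the 8 genes with an unadjusted p under 0.05 (limma), where 3009 of the 16443 tested genes had one. The test shares 1 spread over all 4 groups. Among sham libraries the SD on the log2 scale was 0.0080 for Dnmt1 and 0.091 for Tet2, against 0.583 and 1.24 among hepatectomy libraries. The latter SDs include the difference between genotypes. The sham libraries may therefore make these 2 intervals and p-values too small. Without Cre-positive hepatectomy library 1, library 2 was the only Cre-positive hepatectomy library, and Hells was at -1.95 and Tet2 at -2.40. Without library 2 instead, Hells was at 1.23 and Tet2 at -0.67, so the direction of Hells depended on the library kept. In sham livers, averaged over operations and in the interaction of operation and genotype, 0 genes passed and 0 had an unadjusted p under 0.05; the lowest adjusted p with limma was 1, 0.578 and 0.621. Of all tested genes, 0.0182% passed between genotypes after hepatectomy, 0.00608% in sham livers, 0.0122% averaged over operations and 0.0122% in the interaction.

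The signal of the 8 genes was next set against the 6 replicative helicase genes, Mcm2 to Mcm7, which unwind DNA at the replication fork. Of these, 5 rose after hepatectomy (Mcm2, Mcm3, Mcm5, Mcm6 and Mcm7), where 3.64% of all tested genes rose. Mcm4 did not pass (log2 fold change 1.39, adjusted p = 0.0881, limma). The Mcm7 call was lost without any 1 sham library (adjusted p up to 0.0815, limma). A gene's log2(signal + 1) was compared with the mean of the helicase genes in the same library. On this scale the helicase genes' own rise lowers a gene that stays level, so these differences are relative only. Relative to the helicase, Uhrf1 was higher in hepatectomy than in sham livers by 1.55, with -0.74, -1.04, -0.19 and -0.77 in hepatectomy libraries (2 Cre-positive, then 2 Cre-negative) and -2.70, -1.90, -2.55 and -1.77 in sham libraries in the same order. Dnmt1 differed by -1.27, Dnmt3b by -1.68, Dnmt3a by -2.38, Tet2 by -2.80 and Tet3 by -3.01. For Uhrf1 and these 5 genes the hepatectomy and sham libraries did not overlap. That gives the smallest p of an exact two-sided permutation test of 4 against 4 libraries, 0.0286 (0.0381 after Benjamini-Hochberg adjustment over the 8 genes). Since a level gene is lowered on this scale, this p shows no fall of the 5 genes themselves. The share of all tested genes without overlap on this scale was not computed. Tet1 differed by -1.77 (exact p = 0.0571, adjusted 0.0653). Hells differed by -0.24 (exact p = 0.857), and its groups overlapped. Without Cre-positive hepatectomy library 2 the Hells difference was 0.47.

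**Figure D3:**
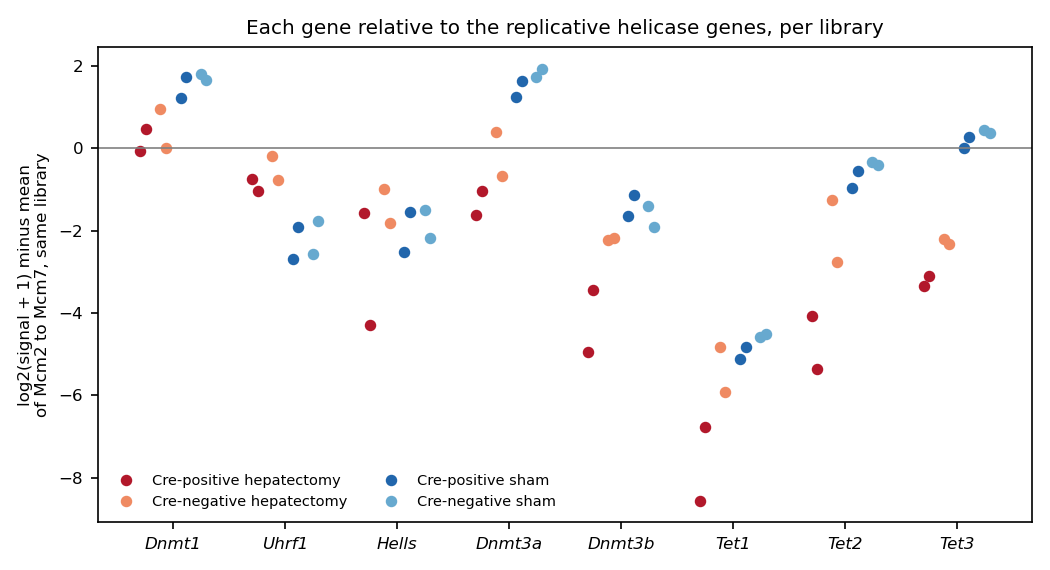
Each gene's log2(signal + 1) minus the mean of Mcm2 to Mcm7 in the same library, with the 4 hepatectomy libraries left of the 4 sham libraries in each gene. Uhrf1 lies higher in hepatectomy libraries by 1.55, Hells overlaps between groups, and Dnmt1, Dnmt3a, Dnmt3b, Tet2 and Tet3 lie lower in hepatectomy libraries.

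Ratios between the 8 genes were compared for 6 pairs. Uhrf1 over Dnmt1 differed by 2.82 on the log2 scale, with -0.68, -1.51, -1.14 and -0.77 in hepatectomy libraries and -3.93, -3.65, -4.35 and -3.43 in sham libraries. The groups did not overlap, at the smallest exact permutation p of 0.0286, which is 0.171 after adjustment over the 6 pairs. The other pairs, Hells and Dnmt3b over Dnmt1, Dnmt3b over Dnmt3a, and Tet1 and Tet3 over Tet2, had an exact p of 0.143 or more.

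Cycling-cell genes were also higher in hepatectomy than in sham libraries. All 6 of a list of cycling-cell markers (Mki67, Top2a, Ccnb1, Ccna2, Cdk1 and Birc5) rose. Of all tested genes, 3.64% rose and 0.845% fell, which is the background for each marker count here. Their summed signal was 1139 and 2398 in Cre-positive and 1015 and 2365 in Cre-negative hepatectomy livers. Among hepatectomy libraries this was not the order of Uhrf1, Dnmt1 or Hells. In sham libraries the sum was 54.4 to 90.0, and no marker was at 0 in any library. Erythroid markers had a summed signal of 10901 to 54918 in hepatectomy and 4792 to 8965 in sham libraries, and 1 of 8, Hba-a2, rose. Stellate markers had a summed signal of 720 to 897 in hepatectomy and 930 to 1344 in sham libraries, and 1 of 8, Colec10, fell. The groups of libraries did not overlap in any of these 3 sums. Endothelial markers summed to 1239 to 2723 in hepatectomy and 2550 to 3384 in sham libraries, and 2 of 7, Kdr and Oit3, fell. Of 7 hepatocyte markers 2, Tat and Cyp2e1, fell. Kupffer cell markers summed to 3952 and 4186 in Cre-positive and 2277 and 1654 in Cre-negative hepatectomy livers, against 1438 to 2374 in sham libraries. Among hepatectomy libraries this was the order of Dnmt1. Cholangiocyte markers summed to 497 to 1751 in hepatectomy and 399 to 505 in sham libraries. Leukocyte markers summed to 211 to 467 and 189 to 519. No Kupffer cell, cholangiocyte or leukocyte marker passed. The part of these cell types in the signal of the 8 genes was not tested.

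Other genes of the methylation machinery were counted from lists drawn up by function. In the same contrast, averaged over genotypes, 3.64% of all tested genes rose and 0.845% fell. Of 10 partners of maintenance, all of them tested, 3 rose and none fell: Lig1, the DNA ligase that joins Okazaki fragments (310 and 381 in Cre-positive and 204 and 311 in Cre-negative hepatectomy livers, against 44.8 and 28.1 in Cre-positive and 41.0 and 40.6 in Cre-negative sham livers; log2 fold change 2.92, adjusted p = 0.00288, limma), 2810417H13Rik, which encodes a partner of the replication clamp (3.13, adjusted p = 0.00348, limma), and Cdca7l, a relative of Cdca7 (2.63, adjusted p = 0.0161, limma). The call on Cdca7l was lost with no filter, without either Cre-negative hepatectomy library, without either Cre-positive sham library and without Cre-negative sham library 1 (adjusted p up to 0.0791, limma). Uhrf2, the paralog of Uhrf1, was at -0.16 (adjusted p = 0.637, limma).

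Of 18 tested genes of demethylation and its repair steps, 2 rose and none fell, where 3.64% of all tested genes rose and 0.845% fell. With so few genes, no result about demethylation as a whole is drawn from this count. They were Neil3, a glycosylase of damaged bases (13.9 and 20.02 in Cre-positive and 34.96 and 36.0 in Cre-negative hepatectomy livers, against 1.58 and 0.985 in Cre-positive and 0.0775 and 3.54 in Cre-negative sham livers; log2 fold change 3.51, adjusted p = 0.0105, limma) and Mbd4, a thymine glycosylase at methylated sites (1.22, adjusted p = 0.0393, limma). The Mbd4 call was lost in 10 of 16 alternatives, among them leaving out any sham library or either Cre-negative hepatectomy library. The Neil3 call was lost without Cre-negative hepatectomy library 1 and without either Cre-positive sham library (adjusted p up to 0.0561, limma). Of 12 tested imprinted genes 1 passed the test, H19, an imprinted RNA of fetal liver, where 3.64% of all tested genes rose. It had 7.45 and 2.67 in Cre-positive and 8.07 and 35.003 in Cre-negative hepatectomy livers. Its sham signal was 0.631 and 0.547 in Cre-positive and 1.12 and 0.743 in Cre-negative livers. H19 entered the test through its hepatectomy libraries, since 3 of its 4 sham values were under the filter of 1. No rise is therefore concluded from the call on H19. It had a log2 fold change of 2.52 (adjusted p = 0.0403, limma) and its call was lost in 9 of 16 alternatives, among them leaving out any sham library or Cre-negative hepatectomy library 2.

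Of the other lists, none had a member past the test in the average: 9 tested partners of de novo methylation, 7 methyl-CpG readers, 16 genes of the methyl donor cycle, whose median log2 fold change was -0.44, and 5 tested of 10 genes silenced by promoter methylation. Among the most abundant of them, Ehmt2 was at 0.37, Trim28 at -0.05, Mbd1 at 0.26, Mbd3 at 0.96, Mat1a at -0.50 and Gnmt at -0.49 (log2 fold changes, none past the test).

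Deposited isoforms were tested in the same way across 47375 isoforms, with 27 of the 56 isoforms of the 8 genes tested. Averaged over genotypes, 3 of the 27 passed the test, where 1.72% of all tested isoforms did. They were the single deposited Dnmt1 isoform (log2 fold change 1.37, adjusted p = 0.043), Uhrf1-001 (2.53, adjusted p = 0.0236) and Uhrf1-004 (3.92, adjusted p = 0.0177, all limma). Each of these 3 calls was lost without Cre-positive hepatectomy library 2 or without any 1 sham library, and the first 2 also without Cre-negative hepatectomy library 1. In Cre-negative livers Uhrf1-004 rose (5.02, adjusted p = 0.0128, limma), where 4.5% of tested isoforms passed, a call lost without Cre-negative hepatectomy library 1 or either Cre-negative sham library. In Cre-positive livers none of the 27 passed, where 0.0106% of tested isoforms did. Uhrf1-001 was at 5.02 in Cre-positive and 0.04 in Cre-negative livers. It entered the test only through the Cre-positive hepatectomy libraries, so no rise over both genotypes is drawn from it.

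Between genotypes after hepatectomy, 1 of the 27 isoforms passed, Uhrf1-001, a share no larger than the 5.17% of all tested isoforms that did. Its signal was 28.5 and 34.7 in Cre-positive and 0.138 and 0.121 in Cre-negative hepatectomy livers, and in sham livers it was 2e-06 and 4.83e-06 in Cre-positive and 6.88e-06 and 0.205 in Cre-negative libraries. The log2 difference between Cre-positive and Cre-negative livers after hepatectomy was 4.84 ± 0.47 (SE; adjusted p = 0.00466, limma), and it held in all 10 alternatives. Averaged over operations the difference was 2.35 (adjusted p = 0.0396, limma), where 0.846% of tested isoforms passed, and in sham livers none of the 27 passed, where 0% of tested isoforms did. The response to hepatectomy differed between genotypes by 4.98 ± 0.67 (SE; adjusted p = 0.0328, limma), where 0.868% of tested isoforms passed, and it was lost with a pseudocount of 0.1, without Cre-positive hepatectomy library 2, without Cre-negative hepatectomy library 1 and without any 1 sham library. The same settings ended the call averaged over operations, as did a pseudocount of 0.5. Such a fold change against signals close to 0 depends on the pseudocount. The isoform passed the filter only through the Cre-positive hepatectomy libraries, where it was high. No difference between genotypes is therefore concluded from these tests of Uhrf1-001. The Uhrf1 gene total did not pass between genotypes after hepatectomy (log2 0.76, 95% interval -0.25 to 1.77; adjusted p = 0.371, limma).

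**Figure D4:**
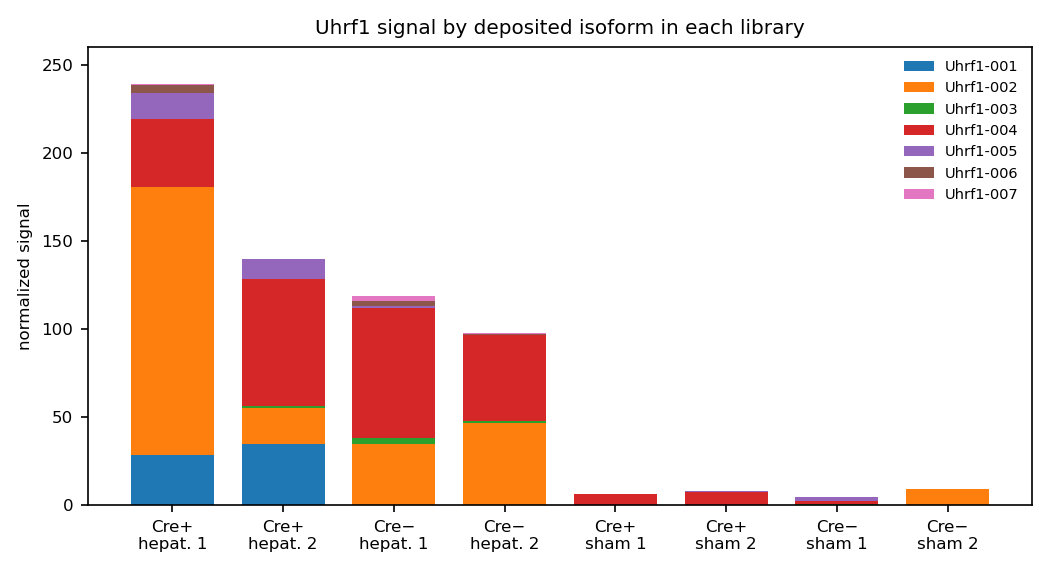
Uhrf1 signal in each library, stacked by deposited isoform (bars start at 0). The total is 97.7 or more in each hepatectomy library and 9.24 or less in each sham library, and Uhrf1-001 is visible in the 2 Cre-positive hepatectomy libraries.

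How a gene's signal was divided among isoforms varied widely between libraries of 1 group. Uhrf1-002 held 63.6% and 14.6% of the Uhrf1 signal in Cre-positive and 29.2% and 47.5% in Cre-negative hepatectomy livers, against 0.000654% and 0.000289% in Cre-positive and 0.00486% and 95.8% in Cre-negative sham livers. The share of the largest isoform was compared between hepatectomy and sham for the 5 genes with at least 2 isoforms of mean signal 1 or more. In each of Uhrf1, Hells, Dnmt3a, Dnmt3b and Tet3 the exact permutation p was 0.229 or more. Shares of a low signal, such as Uhrf1 in sham livers, rest on little signal.

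**Figure D5:**
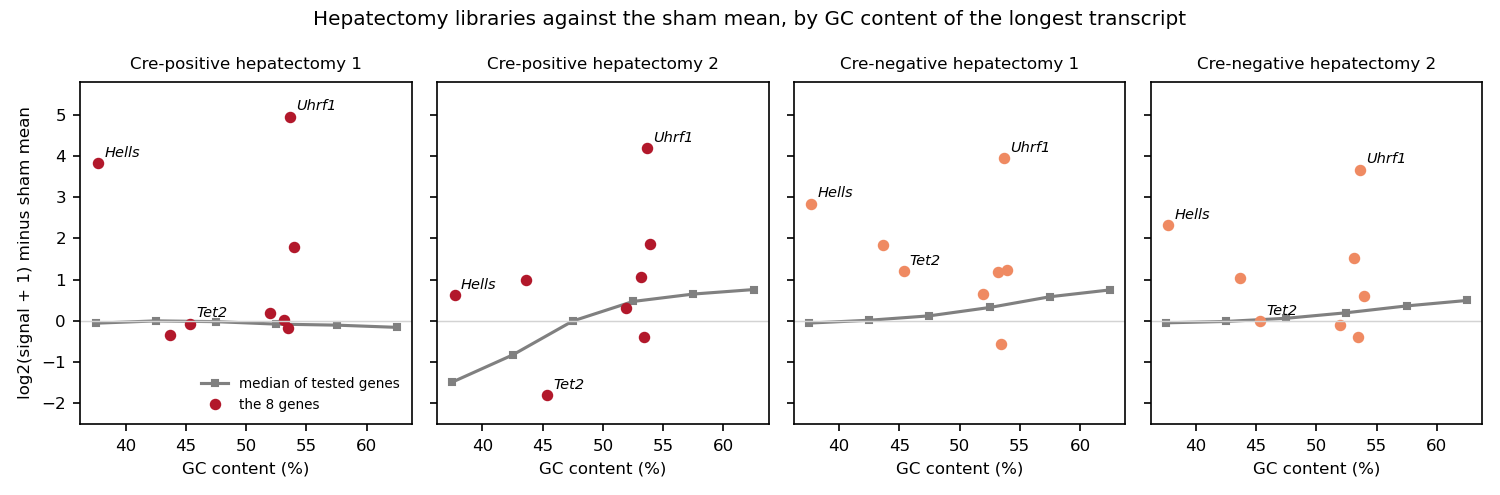
Difference of each hepatectomy library from the sham mean in log2(signal + 1) against the GC content of the longest transcript (%), with the median of tested genes by GC class as a line and the 8 genes as points. The line climbs with GC most in Cre-positive hepatectomy library 2, from -1.48 to 0.76. It also climbs in the Cre-negative hepatectomy libraries, from -0.05 to 0.75 in library 1 and from -0.05 to 0.50 in library 2. Hells and Tet2 lie lower in Cre-positive hepatectomy library 2 than in the other 3 libraries.

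Seen by library, Hells deviated from the sham mean by 3.82 and 0.63 in Cre-positive and 2.84 and 2.32 in Cre-negative hepatectomy livers, and Tet2 by -0.07 and -1.80 in Cre-positive and 1.21 and 0.00 in Cre-negative ones. Dnmt1, at 54.0% GC, and Uhrf1, at 53.7% GC, lay where the trend in library 2 was positive. With the trend removed, Dnmt1 had an averaged log2 fold change of 1.09 and Uhrf1 of 3.91, against 1.37 and 4.19 in the main analysis. Both passed with the trend removed, where 6.93% of all genes tested did.

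The genes whose log2(signal + 1) ran most like each of the 8 over the 8 libraries are named with Pearson's r as a description. Since hepatectomy and sham libraries form separate clusters, such an r includes the difference between operations. For Uhrf1 they were Fignl1 (0.990), Ptgr1 (0.986) and Clspn (0.986), and Clspn encodes an adaptor of the replication checkpoint. For Dnmt1 they were Pkm2 (0.988), a glycolytic enzyme, Clic1 (0.983) and Col4a2 (0.980), a basement membrane collagen. For Hells they were Prpf38a (0.969), Brca1 (0.954), a gene of DNA repair, and Mybl1 (0.953). Dnmt3a ran most like Slc12a4 (0.972), Slc44a2 (0.963) and Nckipsd (0.950), and Dnmt3b like A930004D18Rik (0.987), Gm6043 (0.984) and Rpl28-ps3 (0.980). Tet1 ran most like Trim66 (0.995), Alpk3 (0.993) and Gm14853 (0.993), Tet2 like Tnrc6a (0.994), Ube2v2 (0.991) and Zfp182 (0.990), and Tet3 like Wwc2 (0.987), Enpep (0.982) and Ipo8 (0.976).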

How the data were processed

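RNA of whole liver was measured in 8 libraries of 4 groups, grouped by sample title. The authors deposited a normalized signal for each gene and isoform. TopHat, Cufflinks and the builds mm9 and NCBIM37 appear in the submitters' processing notes; versions, roles and the normalization are not given in the sources used here, nor is strand. The values are not counts, and depth is unknown. The tests had been planned for FPKM, and the same test, limma, was kept for the signal. No per-sample column was left unused (0).

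The test was limma 3.58.1 (R 4.3.3), run on log2(signal + 1), which understates changes of low genes, for the 16443 genes whose signal averaged 1 or more across libraries. A model with 1 mean per group, with variances moderated along intensity (4 residual and 3.25 prior degrees of freedom), gave two-sided p-values, adjusted by Benjamini-Hochberg with a threshold of 0.05. The scripts were tested on simulated data. Ratios and isoform shares were compared with exact permutation tests.

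The members and lists were chosen with earlier results of these data known. Named were all 8 genes, per list up to 4 members past the test by adjusted p or else up to 2 of the highest mean, and the 3 most correlated genes; Uhrf2, Mcm4, Mcm7 and Asz1 were named after their values were seen. Alternatives were other pseudocounts, filters and scalings, no intensity trend, only the groups of a contrast, removal of the GC trend (GC known for 96.6% of tested genes) and leaving out each library.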

Additional observations from a re-analysis of the deposited data

Results flagged for a closer look

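The response of the isoform Uhrf1-001 to hepatectomy differed between genotypes by 4.978 on the log2 scale (limma interaction term, adjusted p = 0.0328), with 28.5 and 34.7 of signal in Cre-positive and 0.138 and 0.121 in Cre-negative hepatectomy livers. The isoform passed the filter only through the Cre-positive hepatectomy libraries, so no conclusion is drawn from this p-value. The call was lost without Cre-positive hepatectomy library 2, without Cre-negative hepatectomy library 1 and without any 1 of the 4 sham libraries (adjusted p 0.0635 to 0.165). No library stood apart by Dixon's test (critical value 0.829) in the 16 sets of 4 hepatectomy or 4 sham libraries of the 8 genes.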

How the results depend on the processing

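No paired analysis was possible because the titles number the samples from 1 to 8 and no number is shared between groups. Compared with the main run, no result that passed there or in an alternative had the opposite direction. Alternatives were not compared with each other. Hells between genotypes after hepatectomy was at -1.95 without Cre-positive hepatectomy library 1 and at 1.23 without library 2. Of the 8 genes, 2 passed the test in Cre-positive livers. That number was 0 with no filter (0.0296% of all tested genes passed) and 1 with quantile normalization (0.59%). It was 1 with no intensity trend (0.687%) and 0 with only the groups of the contrast (0%). In Cre-negative livers (1 gene) it was 2 with only those groups (1.72%). Leaving out each library left 1 library in a group. The number past the test then moved with the library left out, for the 8 genes and for all tested genes. Alternatives for isoforms and lists were chosen after seeing the data. Isoforms past the test were 0 with a pseudocount of 0.1 in the difference of responses, and 0 with 0.1 and 0 with 0.5 between genotypes averaged over operations. The number of isoforms of the 8 genes past the test also moved with the library left out. Genes past the test with a higher hepatectomy signal were 2 to 5 of the maintenance partners (3) and 4 to 6 of the helicase genes (5). For demethylation genes they were 0 to 4 (2), and for imprinted genes 0 to 3 (1). The cause of these changes was not tested. Depth is unknown, which limits low signals such as Tet1.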

Other observations

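Among genes known to be silenced by promoter methylation in somatic cells, Asz1, a gene of germ cells, had a signal of 0.0293 and 0 in Cre-positive and 8.76 and 4.39 in Cre-negative hepatectomy livers, against 0 and 0.177 in Cre-positive and 0 and 0 in Cre-negative sham livers. Asz1 entered the test only through the 2 Cre-negative hepatectomy libraries, so no call is drawn from it. The cause of the difference between libraries was not tested.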
